A study of Mus musculus with 8 samples.

Results

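The mouse genes named Zfp600 to Zfp999 encode zinc finger proteins, and 157 of the 14853 genes in the authors' deposited table carried such a symbol, with or without a trailing letter. The rule that chose the members uses the symbol alone and no measured value, though it was set with earlier results of these data known. They lay on 18 chromosomes, and their mean counts made up 0.413% of the summed mean counts of the table. RefSeq lists 184 genes with such symbols, of which 162 were in the table by gene ID. Of those, 5 stood in rows without a symbol (Zfp783, Zfp660, Zfp970, Zfp939 and Zfp935) and therefore fell outside the 157. The other 22 genes were not analysed here. Zfp966 and Zfp967 carried identical values in every column, as 2 near-identical copies would if they received the same reads, so neither can be read on its own. Zfp965 and Zfp973 had nearly the same values (mean counts of 48.1 and 48.5, log2 fold changes of 0.40 and 0.39). Most of their transcript sequence was also found in other genes, mainly in each other, so they may not be separate measurements either.

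Total RNA was sequenced from undifferentiated spermatogonia, a germ cell population of the testis that holds its stem cells. The mice were C57BL/6 animals of 8 to 12 weeks, and cells were collected 7 days after tamoxifen. One group had the genotype Tert CreER/flox (4 samples, titled TERT-del) and the other Tert CreER/+ (4 samples, titled TERT-hetero). Both groups carried Rosa lsl-tdTomato/+, received tamoxifen and were sorted as MCAM-high, KIT- and tdTomato+ cells. CreER is a recombinase that tamoxifen switches on, and here it sits in the Tert gene, which encodes the reverse transcriptase of telomerase. The controls therefore also carry CreER at 1 Tert allele, and no wild-type group was part of the comparison. Cells enter the sort only if CreER had acted on the reporter. The sources used here do not say whether each sample came from 1 animal, so the p-values measure the spread between these samples.

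Most C2H2 zinc finger proteins bind DNA through an array of small domains, each held together by a zinc ion between a pair of cysteines and a pair of histidines. Many of them also carry a Krüppel-associated box (KRAB), a short domain that binds the co-repressor TRIM28 (also called KAP1). TRIM28 in turn brings in the histone methyltransferase SETDB1 and heterochromatin proteins, and this machinery is known for silencing endogenous retroviruses in early embryos and the germline. KRAB zinc finger genes sit in clusters of recently duplicated neighbours, so many share long stretches of sequence.

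All values per gene came from the authors' deposited table, fitted by them with DESeq2. It gives a normalized mean count over the 8 libraries, a log2 fold change with its standard error (SE), and a p-value adjusted by the Benjamini-Hochberg method over all genes. Values per library were not used here, so the spread between libraries enters only through the SE. A gene was called higher or lower at an adjusted p under 0.05. The sign was read as CreER/flox over CreER/+ from the table's name. It could not be checked on the targeted gene: Tert itself had a mean count of 98.0 and a log2 fold change of 0.29 (adjusted p = 0.595, SE 0.26) in the authors' deposited table. In such bulk samples, a change in the share of a cell type and a change in RNA per cell cannot be told apart.

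The labelled cell type was checked on its markers. All 10 markers of undifferentiated spermatogonia were measured, with mean counts of 66.1 to 5143, and none was called, while 8 of the 10 were below 0 (median -0.08, 2 of them at an unadjusted p under 0.05, Ret at -0.23 and Zbtb16 at -0.18). Of the germ cell genes, Dazl was called higher at 0.23 (adjusted p = 0.00997, SE 0.06) and Ddx4 stood at 0.20 (adjusted p = 0.300, SE 0.11) in the authors' deposited table. Of the differentiation markers, Stra8 stood at 0.30 (adjusted p = 0.244, SE 0.15) and Kit at -0.29 (adjusted p = 0.474, SE 0.21) in the authors' deposited table. Of the somatic lists, 3 of 5 Sertoli markers were measured, 1 of 4 for Leydig cells, 2 of 3 for myoid cells and 1 of 3 for leukocytes, at mean counts of 13.0 to 89.0. The myoid marker Actg2 fell by 1.17 on the log2 scale (adjusted p = 0.0340, SE 0.37). All 10 spermatid markers, with mean counts of 21.8 to 1924, had fold changes below 0 with a median of -1.12, and 5 of them were called lower. The part of these markers in the values below was not tested.

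The promoter sequences of 5 of the genes that were called higher are shown because they let a reader see how alike some of these genes are outside their coding sequence. Each runs from 250 bases before to 50 bases after a RefSeq start site of GRCm38.p6, and is written 5′ to 3′ on the gene's own strand. The capitals mark the letters CCAAT or, for a match on the other strand, ATTGG.
Zfp600, chr4:146156577-146156876, plus strand: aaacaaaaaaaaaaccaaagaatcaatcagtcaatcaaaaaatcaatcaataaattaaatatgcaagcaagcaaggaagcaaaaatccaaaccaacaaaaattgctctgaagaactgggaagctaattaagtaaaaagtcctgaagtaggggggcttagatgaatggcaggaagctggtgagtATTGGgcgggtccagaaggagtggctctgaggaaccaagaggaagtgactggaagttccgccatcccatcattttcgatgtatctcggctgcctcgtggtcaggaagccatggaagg
Zfp979, chr4:147642459-147642758, minus strand: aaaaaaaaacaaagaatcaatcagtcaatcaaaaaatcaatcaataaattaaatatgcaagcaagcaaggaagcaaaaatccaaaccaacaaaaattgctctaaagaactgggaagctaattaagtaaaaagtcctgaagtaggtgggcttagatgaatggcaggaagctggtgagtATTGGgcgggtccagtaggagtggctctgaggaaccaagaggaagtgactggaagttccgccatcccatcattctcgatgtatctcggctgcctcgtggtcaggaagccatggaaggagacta
Zfp980, chr4:145670447-145670746, plus strand: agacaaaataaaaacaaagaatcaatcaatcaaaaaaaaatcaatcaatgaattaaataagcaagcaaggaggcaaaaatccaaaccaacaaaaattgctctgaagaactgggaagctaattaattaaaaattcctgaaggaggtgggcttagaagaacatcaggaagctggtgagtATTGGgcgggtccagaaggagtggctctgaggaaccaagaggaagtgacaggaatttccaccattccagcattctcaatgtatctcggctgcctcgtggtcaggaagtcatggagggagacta
Zfp617, chr8:71922575-71922874, plus strand: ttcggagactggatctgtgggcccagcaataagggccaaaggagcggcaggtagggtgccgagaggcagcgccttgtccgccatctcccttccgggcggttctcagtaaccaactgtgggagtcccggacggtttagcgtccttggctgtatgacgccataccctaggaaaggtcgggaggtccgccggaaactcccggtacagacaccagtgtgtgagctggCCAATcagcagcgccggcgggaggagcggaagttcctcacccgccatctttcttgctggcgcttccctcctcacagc
Zfp808, chr13:62129640-62129939, plus strand: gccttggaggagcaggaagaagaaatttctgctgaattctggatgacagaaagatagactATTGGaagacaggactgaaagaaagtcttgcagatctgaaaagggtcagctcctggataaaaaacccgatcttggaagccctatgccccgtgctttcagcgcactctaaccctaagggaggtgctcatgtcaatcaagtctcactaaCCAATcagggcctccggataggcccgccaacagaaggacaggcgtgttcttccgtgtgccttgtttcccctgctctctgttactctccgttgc

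Zfp600, Zfp979 and Zfp980 lie on chromosome 4, and their windows share most of their letters and each holds ATTGG. In a pairwise alignment the Zfp979 window was 96.3% identical to that of Zfp600, and the Zfp980 window 90.3%. Identity here is the share of the 300 bases that matched, with gaps at the ends left free. Unlike windows may thus be aligned over a short stretch only, so low values do not rank how alike 2 windows are. Other chromosome 4 members had windows of the same kind, with identities to Zfp600 of 88% for 1 of the windows of Zfp982, 86% for Zfp985, 84.7% for Zfp987, 77.7% for Zfp981 and 72.3% for Zfp984. The window of Zfp933 was less alike at 55.7%. Zfp600 has 2 windows, and the one not shown was not of this kind (6.33% by this measure).

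The windows of Zfp617 and Zfp808, on chromosomes 8 and 13, have other sequences, and the Zfp808 window aligned to that of Zfp600 at 34% identity. In RefSeq, 135 members had at least 1 such window, 163 windows in all, and 6 of the 8 called members were among them. CCAAT on either strand was present in 66.9% of the 118 windows of members with a KRAB box, in 33.3% of the 45 windows of members without one and in 37.4% of all 32851 windows. CCGGAAG was present on either strand in 22% of the KRAB windows against 8.86% of all windows. TATAAA was present in 4.24% of the KRAB windows against 13.6% of all windows. GGGCGG was present in 36.4% of the KRAB windows, 60% of those without KRAB and 35.7% of all windows. These shares also count either strand, and in the 3 chromosome 4 windows shown ATTGG and GGGCGG overlap by their shared letters. Some windows are near copies of each other, so windows are not independent of one another. Of the 6 called members with a window, 5 held CCAAT, and Zfp748 did not. A match is a description of the letters and not of binding.

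Across the 157 members, 7 were called higher and 1 lower in CreER/flox cells. The 8 called make up 5.1% of the members, beside 5.36% of all genes called in either direction. By direction, 4.46% of members were called higher against 1.94% of all genes, and 0.637% were called lower against 3.42% of all genes. At an unadjusted p under 0.05 there were 24 members higher and 8 lower, beside 1359 higher and 1562 lower among all 14853 genes. The share called was thus near that of the table, while its split leaned to the higher side. The members' log2 fold changes had a median of 0.11 (quartiles -0.07 to 0.29), and 103 of 157 were above 0. Over all genes the median was 0.0007 (quartiles -0.19 to 0.15), and 7440 of 14853 were above 0. No member's log2 fold change exceeded 1 in size, and 15 exceeded 0.5.

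**Figure D1:**
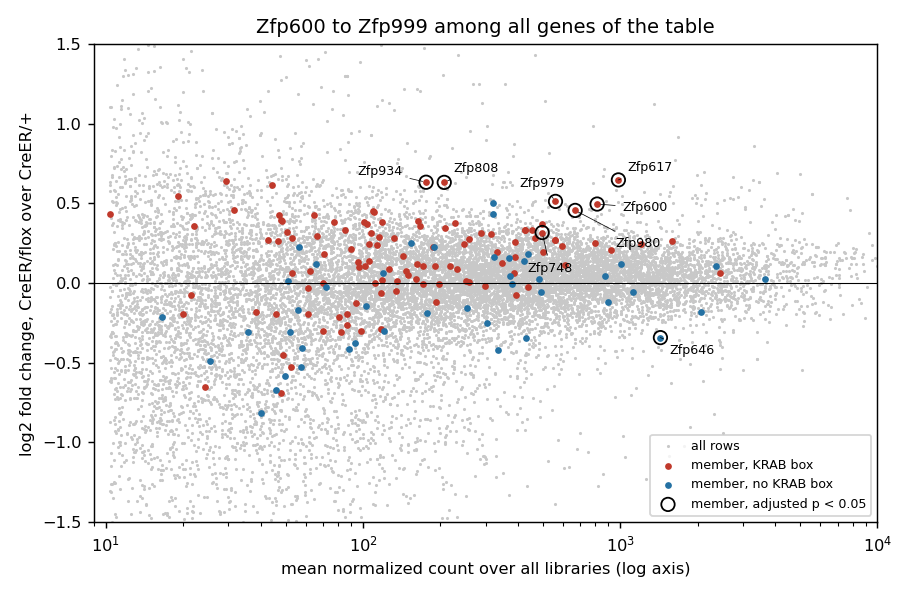
Log2 fold change (CreER/flox over CreER/+) against mean normalized count over all libraries (log axis) for every gene in grey, members with a KRAB box in red and members without one in blue; circles mark the 8 members with an adjusted p under 0.05. The called higher members lie between mean counts of 176 and 984, and 211 genes outside ±1.5 or above a mean count of 10000 are not drawn.

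The gene with the smallest adjusted p was Zfp600 on chromosome 4 (146156827 to 146198756, GRCm38.p6), a KRAB protein of 737 amino acids in which a pattern search found 17 fingers. In the authors' deposited table its mean count was 813 and its log2 fold change 0.50 (adjusted p = 0.00113, SE 0.11), or 1.41-fold higher. Zfp979 lies on the same chromosome (147611936 to 147642508) and encodes a shorter KRAB protein with 3 fingers. Its log2 fold change was 0.51 (adjusted p = 0.00414, SE 0.13) at a mean count of 560 in the authors' deposited table. Zfp980 (145670697 to 145704437), with a KRAB box and 13 fingers, was 0.46 higher (adjusted p = 0.0186, SE 0.13) at a mean count of 668 in the authors' deposited table. These 3 genes are those whose promoter windows are over 90% identical.

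The largest fold change among the called members was that of Zfp617, a KRAB protein with 14 fingers on chromosome 8 (71922825 to 71934630). The authors' deposited table gives it a mean count of 984 and a log2 fold change of 0.65 (adjusted p = 0.00147, SE 0.15), or 1.57-fold higher. Zfp808 and Zfp934 form a pair on chromosome 13 (62129857 to 62173938 and 62516795 to 62579321), with 22 and 11 fingers. Zfp808 was 0.63 higher (adjusted p = 0.00325, SE 0.15) at a mean count of 207 in the authors' deposited table. Zfp934 was also 0.63 higher (adjusted p = 0.0282, SE 0.19) at a mean count of 176 in the authors' deposited table. The pair share transcript sequence, 46.4% of the 50-base windows of Zfp808 and 41.6% of those of Zfp934 being found in another gene, in each case mainly the other of the pair. The sources used here do not say how reads that fit both were counted, so the 2 values may not be separate measurements.

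Zfp748 on chromosome 13 (67538641 to 67553152), a KRAB protein with 23 fingers, had the smallest change of the higher members. In the authors' deposited table its log2 fold change was 0.32 (adjusted p = 0.0366, SE 0.10) at a mean count of 497. Only 0.725% of its windows were found in other genes, which counts exact matches and not near ones. Tert, the targeted gene, lies on chromosome 13 too (73626911 to 73649843). Of the 13 members on that chromosome, Zfp808, Zfp934 and Zfp748 were called higher, or 23.1% beside 1.94% of all genes. The part of nearness to the altered allele in these values was not tested. Zfp646 on chromosome 7 (127876914 to 127885996) was the only member called lower. It encodes a long protein of 1788 amino acids in which the pattern search found 30 fingers and no KRAB box. Its log2 fold change was -0.34 (adjusted p = 0.0319, SE 0.11) at a mean count of 1433 in the authors' deposited table. The gene overlaps Prss53 in RefSeq, and the sources used here do not give the strand setting of the counting.

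These calls rest on the normal distribution of the Wald statistic. With a t distribution of 6 degrees of freedom none of the 157 was called (21 at an unadjusted p under 0.05, and none among all genes after adjustment). With a null spread estimated from the central statistics also none was called (9 at an unadjusted p under 0.05). After removal of the trend of fold change with GC content, mean count and transcript length, Zfp617 (adjusted p = 0.0319) and Zfp600 (adjusted p = 0.0441) kept their calls, and Zfp808 stood at 0.0501.

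**Figure D2:**
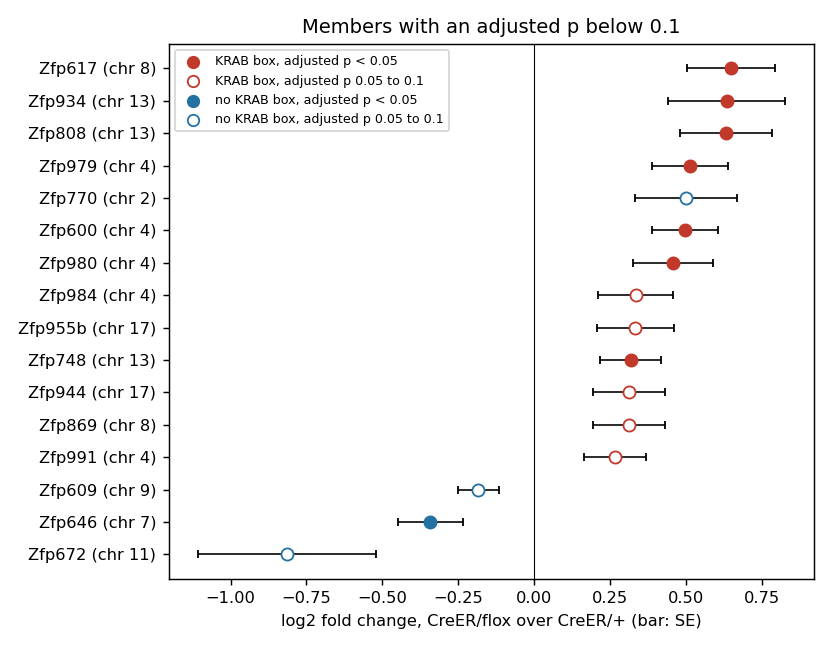
Log2 fold change with its SE for the 16 members with an adjusted p under 0.1, red with and blue without a KRAB box, filled where the adjusted p is under 0.05. The 13 higher members lie between 0.27 and 0.65, and no KRAB box was found in the 3 lower ones, Zfp609, Zfp646 and Zfp672.

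A further 8 members had an adjusted p of 0.05 to 0.1. Of these, 6 were above 0: Zfp770, Zfp984, Zfp869, Zfp944, Zfp955b and Zfp991. Zfp770, which has 11 fingers, no KRAB box and no window shared with another gene, stood just outside the threshold. Its log2 fold change was 0.50 (adjusted p = 0.0510, SE 0.17) at a mean count of 321 in the authors' deposited table. The other 5 carry a KRAB box, and their log2 fold changes ran from 0.27 (Zfp991) to 0.33 (Zfp984) in the authors' deposited table. The 2 below 0 carry none. Zfp672 had a log2 fold change of -0.81 (adjusted p = 0.0767, SE 0.29) at a mean count of only 40.2, and Zfp609, a regulator of Integrator-dependent transcription, -0.18 (adjusted p = 0.0875, SE 0.07) at 2055, in the authors' deposited table.

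A KRAB box was found by a sequence pattern in 113 of the 157 proteins, and the members with and without it had different distributions. Throughout, a member without a KRAB box is one in which this pattern found none. The pattern may miss diverged boxes, so the class without it may hold some KRAB proteins, which was not checked. Among the 113, 85 were above 0 with a median log2 fold change of 0.21 (quartiles 0.00 to 0.33). Of them 7 were called higher (6.19%, beside 1.94% of all genes) and none lower (beside 3.42% of all genes). The share called in either direction was near the 5.36% of all genes. At an unadjusted p under 0.05, 22 were higher and 1 lower. Among the 44 without a KRAB box, 18 were above 0 with a median of -0.09 (quartiles -0.32 to 0.11). None of these was called higher and 1 lower (2.27%, beside 3.42% of all genes), with 2 higher and 7 lower at an unadjusted p under 0.05. The 2 classes also differ in composition. The median GC content of the longest transcript was 40.3% with and 51.1% without the box, and the median number of fingers 12 and 7. With the trend removed, the medians were 0.12 and -0.04. The part of GC content in the difference was otherwise not tested.

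The same classes in the lower-numbered genes Zfp1 to Zfp599 were set beside them. Of 91 such genes with a KRAB box, 59 were above 0 with a median of 0.11. In this class 2 were called higher (2.2%, near the 1.94% of all genes) and none lower. Of 106 without it, 51 were above 0 with a median of -0.02. In that class 2 were called higher (1.89%) and 4 lower (3.77%, near the 3.42% of all genes). The BTB-domain family Zbtb (40 genes) had a median of 0.02 with 1 called higher, and the SCAN-domain genes Zscan and Zkscan (21 genes) a median of 0.03 with none called and 2 lower at an unadjusted p under 0.05. No difference between these families was tested. The KRAB members of both number ranges had medians above those of their counterparts without the box.

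**Figure D3:**
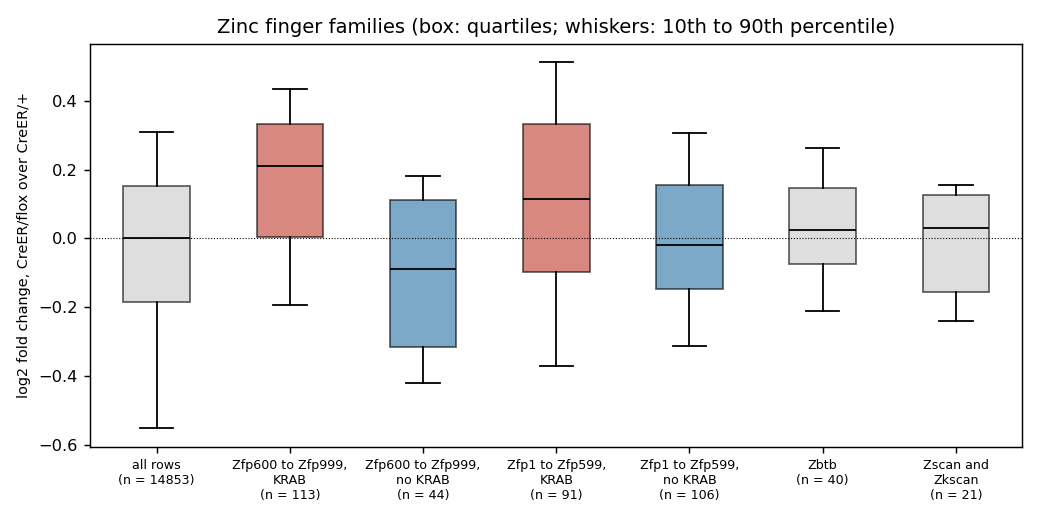
Log2 fold change (CreER/flox over CreER/+) of all genes and of zinc finger families, split by KRAB box for the Zfp genes. Lines are medians, boxes quartiles and whiskers the 10th to 90th percentile. The 113 KRAB members of Zfp600 to Zfp999 have a median of 0.21 and the 44 without the box -0.09.

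The leaning to the higher side was seen at middle and not at low counts. Of 24 members with a mean count under 50, 11 were above 0 and the median was -0.13, beside -0.16 for all genes of that range. The 72 members between 50 and 200 had a median of 0.07 (all genes -0.03), with Zfp934 called higher (1.39%, beside 1.32% of all genes of that range). Of 52 members between 200 and 1000, 42 were above 0 with a median of 0.20 (all genes 0.03). The other 6 genes called higher were among them (11.5%, beside 2.04% of all genes of that range called higher). The 9 members from 1000 up had a median of 0.07 (all genes 0.05), with Zfp646 called lower. Of the 39 KRAB members with a mean count of at least 200, 36 were above 0, with a median of 0.26. Of the 22 members without the box in that range, 12 were above 0, with a median of 0.02.

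Mean counts are not divided by transcript length, so they show the depth behind a value and not the order of expression. Zfp644, whose protein works with the methyltransferases EHMT1 and EHMT2, had the highest mean count at 3664, and its log2 fold change was 0.03 (adjusted p = 0.885, SE 0.07) in the authors' deposited table. Zfp655 followed at 2436, with a log2 fold change of 0.07 (adjusted p = 0.676, SE 0.07) in the authors' deposited table. Zfp638, whose human counterpart silences unintegrated retroviral DNA, had a mean count of 2352 and a log2 fold change of 0.11 (adjusted p = 0.363, SE 0.07) in the authors' deposited table. At such depth the SE is small, and the intervals ran from -0.10 to 0.15 for Zfp644, -0.07 to 0.20 for Zfp655 and -0.02 to 0.24 for Zfp638. With the trend removed Zfp644 and Zfp655 stood at -0.06 each. Zfp664 at 1120 had -0.06 (adjusted p = 0.745, SE 0.08) in the authors' deposited table. Zfp781 at 1205 had 0.25 (adjusted p = 0.112, SE 0.10) in the authors' deposited table, and Zfp991 at 1588 had 0.27 (adjusted p = 0.0971, SE 0.10). Zfp781 has a KRAB box but no finger in any of its translated coding sequences, and 96.3% of its windows are shared, mainly with Gm3055.

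The largest deviations below 0 among members with a mean count of at least 50 did not pass the test. In the authors' deposited table the log2 fold changes were -0.53 for Zfp974 (SE 0.30), -0.53 for Zfp608 (SE 0.30), -0.42 for Zfp654 (SE 0.17), -0.42 for Zfp653 (SE 0.22) and -0.41 for Zfp618 (SE 0.28), with adjusted p-values of 0.116 to 0.436. Only Zfp974 of these 5 has a KRAB box. The 5 largest above 0 were the called Zfp617, Zfp934, Zfp808 and Zfp979 together with Zfp770. The median SE of the members was 0.18, at which a log2 fold change of 0.55, or 1.47-fold, would have been needed for a call. Smaller changes of single members at that SE or a larger one would not have been called. Members with smaller SEs were called at less, down to 0.32 for Zfp748 (SE 0.10).

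Several members are known by name for silencing or development. Zfp809, the KRAB protein that recognises the primer binding site of murine leukaemia viruses, had a mean count of 38.3 and a log2 fold change of -0.18 (adjusted p = 0.822, SE 0.31) in the authors' deposited table. Zfp932, which represses endogenous retroviruses together with its paralogue Gm15446, stood at 0.31 (adjusted p = 0.349, SE 0.19) in the authors' deposited table and shares 45.2% of its windows, mainly with Gm15446. Zfp708, a repressor of retrotransposons, stood at 0.08 (adjusted p = 0.867, SE 0.17) in the authors' deposited table with all of its windows found in other genes, mainly in Gm28557. Zfp819, another KRAB factor, stood at 0.10 (adjusted p = 0.794, SE 0.16) in the authors' deposited table. None of these 4 passed the test, and the interval of each includes 0. The epidermal regulator Zfp750 (-0.21), the co-repressor Zfp703 (-0.19), Zfp706 (-0.06) and Zfp711 (0.05) were likewise not called in the authors' deposited table, with adjusted p-values of 0.596 to 0.884. With the trend removed, Zfp708 stood at -0.04 and Zfp711 at -0.05. Zfp668 had 0.43 (adjusted p = 0.127, SE 0.18) in the authors' deposited table. Zfp683 was not analysed here.

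Neighbouring genes were then grouped, joining Zfp genes whose starts lay within 500 kb of the next. Over all genes 1.94% were called higher and 3.42% lower. The 79 members in the 11 groups with at least 4 members had a median log2 fold change of 0.21, with 5 called higher (6.33%) and 1 lower (1.27%). The 32 members in groups of 2 or 3 had a median of 0.07, with 2 called higher (6.25%). The 46 members with no neighbouring member had a median of 0.05, with none called (2 higher and 3 lower at an unadjusted p under 0.05). The KRAB members alone had medians of 0.24 inside the large groups (57 of 71 above 0) and 0.13 elsewhere (28 of 42 above 0).

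On chromosome 4 a group from Zfp980 to Zfp981 spans 145670697 to 146539395 and holds 5 members, all with a KRAB box and all above 0, with a median of 0.37. Besides the called Zfp980 and Zfp600 they are Zfp987 (0.37, SE 0.16), Zfp981 (0.33, SE 0.17) and Zfp992 (0.25, SE 0.11), which had adjusted p-values of 0.155 to 0.244 in the authors' deposited table. Much of the transcript sequence of these genes was also found in other genes, with a median of 72.6% of their windows shared. For each of the 5, the gene that shared most windows was not another member of the group. A second group on chromosome 4 spans 147132093 to 147849126 and holds 6 KRAB members with a median of 0.31. Zfp979 was called there, while Zfp984 (0.33), Zfp985 (0.33), Zfp933 (0.29) and Zfp991 (0.27) were above 0 without a call in the authors' deposited table. Zfp982 was the exception at -0.45 (adjusted p = 0.530, SE 0.36) in the authors' deposited table, at a mean count of 48.9. Of its 3 promoter windows, 1 is like that of Zfp600, and the others are not (17% and 15% by the same measure).

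The called Zfp617 belongs to a group of 4 KRAB members on chromosome 8 with a median of 0.38. Its neighbours Zfp961 (0.45, SE 0.23), Zfp709 (0.32, SE 0.37) and Zfp882 (0.06, SE 0.31) were above 0 but not called in the authors' deposited table. A second group on chromosome 8 of 6 KRAB members, from Zfp930 on, had every member above 0 with a median of 0.30 and no call, and 2 members higher at an unadjusted p under 0.05. Of the 10 members around the called Zfp748 on chromosome 13, all with a KRAB box, 8 were above 0 with a median of 0.20. They include Zfp874b (0.24), Zfp738 (0.23), Zfp874a (0.22), Zfp729b (0.21), Zfp729a (0.20), Zfp953 (0.13) and Zfp708, while Zfp759 stood at -0.01 and Zfp712 at -0.19 in the authors' deposited table. Of these 9, none passed the test.

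The 14 KRAB members in the first group on chromosome 17, from Zfp677 on, had a median of 0.20, and 13 of them were above 0 without a call (1 higher at an unadjusted p under 0.05). The group of 7 from Zfp871 on the same chromosome had a median of 0.26, with 4 above 0.

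Not every group leaned to the higher side. The 9 members around the called Zfp646 on chromosome 7, of which 4 carry a KRAB box, had a median of -0.19. Below 0 beside Zfp646 were Zfp629 (-0.67, SE 0.39), Zfp768 (-0.58, SE 0.29), Zfp771 (-0.49, SE 0.39) and Zfp689 (-0.19, SE 0.27), and above 0 were Zfp764 (0.44, SE 0.68), Zfp668, Zfp688 (0.27, SE 0.32) and Zfp747 (0.10, SE 0.20) in the authors' deposited table. Zfp668 and Zfp646, which lie next to each other, thus had fold changes of opposite sign. The 6 KRAB members from Zfp607b on chromosome 7 had a median of -0.09 with 2 above 0. The 5 members from Zfp786 on chromosome 6, with a KRAB box found by the pattern in 2, had a median of -0.17 with 1 above 0. Another group on chromosome 7, of 7 KRAB members from Zfp977 on, had a median of 0.18 with 6 above 0.

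**Figure D4:**
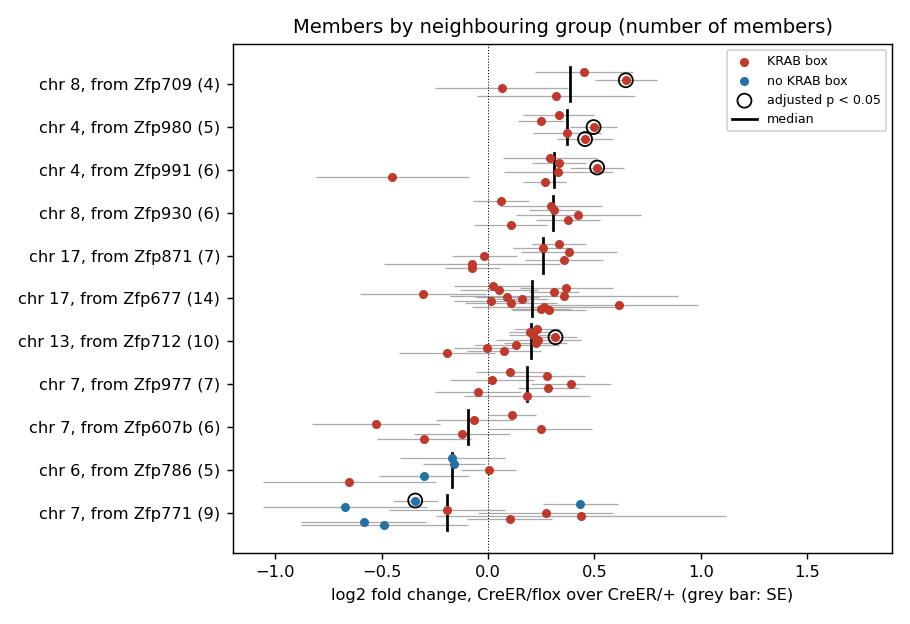
Log2 fold change (CreER/flox over CreER/+) with its SE as a grey bar for the 79 members in the 11 neighbouring groups of at least 4 members, ordered by the group's median (black line), red with and blue without a KRAB box. In the group of 5 on chromosome 4 from Zfp980 all members lie above 0, and the group of 9 on chromosome 7 from Zfp771 has a median of -0.19.

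Sequence shared between genes went along with the fold changes over all members and among those with a KRAB box, but not among those without it. The longest transcript of each member was cut into 50-base windows, and the share of windows found exactly in a transcript of another gene was counted. The 35 members with at least 20% shared all carry a KRAB box. Of these, 30 were above 0 with a median log2 fold change of 0.31. Among them fell 6 of the 8 calls, all higher (17.1%, beside 1.94% of all genes called higher). The 46 members with 1 to under 20% had a median of 0.12 and no call. The 76 members with under 1% had a median of 0.02, with 41 above 0 and 1 call in each direction (1.32% each). Within the KRAB members alone the medians of the 3 classes were 0.31, 0.20 and 0.07. Members without the box had medians of -0.17 with 1 to under 20% shared (9 members) and -0.06 with under 1% (35 members). With the trend with GC content, mean count and length removed, the medians over all members were 0.19, 0.09 and 0.04. In the classes with much shared sequence, reads of 1 gene may have been counted for its relatives, so their values need not be separate measurements.

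Fold change also varied with GC content. Spearman's rho between the log2 fold change and the GC content of the longest transcript was -0.50 across the 157 members and -0.35 across the 113 with a KRAB box. Across 13712 protein-coding genes of the table it was -0.17. For transcript length it was -0.21 across the members, for mean count 0.18, for the number of fingers 0.18 and for the share of windows found in other genes 0.37. Genes are not independent replicates, they were all measured in the same libraries, and related members share sequence, so these values are descriptions. By number of fingers, the 22 members with 0 to 5 had a median of -0.11, the 35 with 6 to 9 of 0.09, the 62 with 10 to 14 of 0.18 and the 38 with 15 or more of 0.16. The members with few fingers were thus those that stood below 0 on balance. Within the 113 KRAB members alone, rho with the number of fingers was -0.01. The median number of fingers was 12 with and 7 without the box, so the finger classes also differ in their share of KRAB members.

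**Figure D5:**
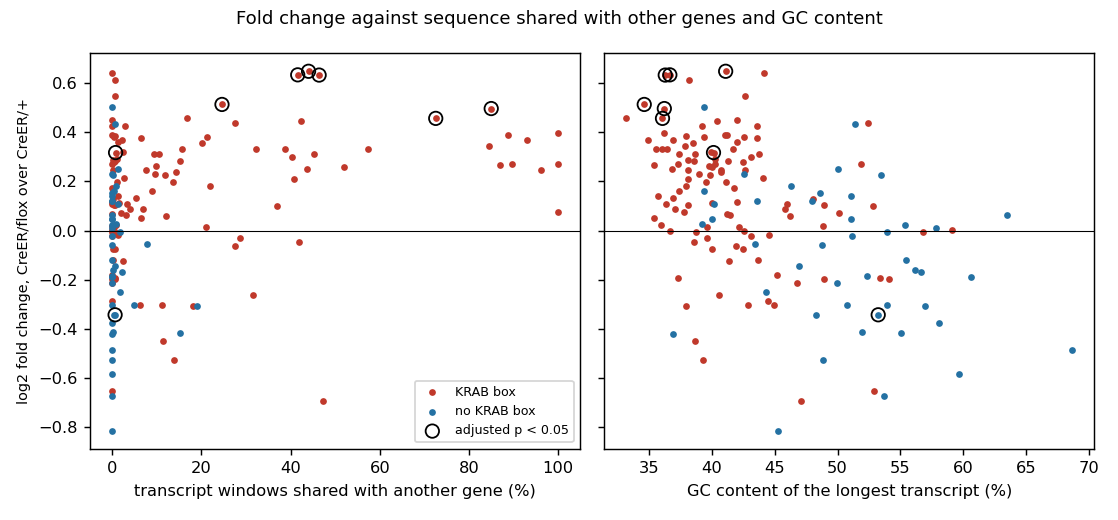
Log2 fold change (CreER/flox over CreER/+) of the 157 members against the share of 50-base transcript windows found in another gene (left, percent) and against the GC content of the longest transcript (right, percent), red with and blue without a KRAB box, circles for an adjusted p under 0.05. Of the 8 circled members, 6 have at least 20% of windows shared, and the fold changes decline with GC content (rho -0.50).

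The co-repressors and chromatin factors that KRAB proteins act through were taken as a list of 32 genes, all of which were measured. None was called higher and 2 were called lower, 6.25% of the list beside 3.42% of all genes called lower and 5.36% called in either direction. The median was 0.05 with 21 above 0 (6 higher and 3 lower at an unadjusted p under 0.05). Trim28, the protein that binds the KRAB box, had a log2 fold change of 0.05 (adjusted p = 0.75, SE 0.07) at a mean count of 3490 in the authors' deposited table. Setdb1, the methyltransferase that TRIM28 recruits, had 0.01 (adjusted p = 0.963, SE 0.07) in the authors' deposited table. Both were thus measured with small errors and lay close to 0.

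Chd3, a remodeller of the NuRD deacetylase complex that binds TRIM28, fell by 0.42 on the log2 scale (adjusted p = 9.27e-05, SE 0.08) in the authors' deposited table. Its paralogue Chd4 had -0.11 (adjusted p = 0.453, SE 0.08) in the authors' deposited table. Ehmt2, which methylates histone H3 at a lysine linked to silencing, fell by 0.23 (adjusted p = 0.010, SE 0.06) in the authors' deposited table, and its partner Ehmt1 had -0.03 (adjusted p = 0.865, SE 0.08). With the trend in GC content, mean count and length removed, Chd3 kept its call (adjusted p = 0.00988) and Ehmt2 did not (adjusted p = 0.0605). With a t distribution of 6 degrees of freedom none of the 32 was called (6 at an unadjusted p under 0.05), and with the estimated null spread none (3 at an unadjusted p under 0.05).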

How the data were processed

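RNA was measured in 4 Tert CreER/flox and 4 Tert CreER/+ samples of sorted spermatogonia, by sequencing stranded libraries of total RNA made for low input, per the labels' protocols. Tools named in the submitters' processing notes are DESeq2, Bowtie, Bowtie2 2.0.0-6, TopHat2 2.0.4 and Trim Galore, and the builds are GRCm38 and mm10. The sources used here do not give the counting program, its annotation and strand setting, or how reads mapping to several places were treated. Per the file headers, the authors' mean count is a signal of normalized counts averaged over all libraries. The authors deposited fold changes and SEs on the log2 scale. The deposited Wald score equals the log2 fold change over its SE. The deposited p-values are two-sided, with a Benjamini-Hochberg adjustment by the authors over 14853 rows. Depth is shown by mean counts and SEs, since totals per library were not used here.

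Members were matched to RefSeq (GRCm38.p6) by gene ID, which succeeded for all 157, 1 of them (Zfp977) under another RefSeq symbol. Coordinates and promoters came from RefSeq. Transcripts came from GENCODE M21, as the longest per gene. KRAB boxes and C2H2 fingers were found by patterns in proteins translated from all GENCODE coding sequences of a gene. The largest value over these proteins was taken separately for the box, the fingers and the length. They took the place of the RefSeq proteins first planned, which were not used here. The finger pattern was C, 2 to 4 residues, C, 12 residues, H, 3 to 5 residues, H.

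The members and gene lists were chosen with earlier results of these data known. Named genes were those with an adjusted p under 0.1, the 8 highest mean counts, the 5 largest folds each way at mean counts of at least 50, members with known roles, and members of neighbouring groups of at least 4 that hold a call. Tert, Trim28, Setdb1 and called machinery genes were also named, and Chd4, Ehmt1, the markers named singly and the medians of the groups without a call were added after their values were seen. No model was fitted across libraries. Alternatives were other thresholds, adjustment over mean counts of at least 100, a null SD from the central statistics (1.45), a t distribution with 6 degrees of freedom, centring, and removal of a spline trend with GC content, mean count and transcript length in 13712 protein-coding rows. The adjustment and the trend removal were tested on simulated data with noise equal to the deposited SEs, whereas the null SD of the deposited statistics was 1.45. The null SD was tested only on normal draws of known spread that held no true change. How true changes would move that estimate was not tested. The sequence patterns, shared windows, neighbouring groups and promoter alignments were not tested in this way. Python 3.11.15, pandas 2.3.3, numpy 2.4.6, scipy 1.17.1, scikit-learn 1.9.0, Biopython 1.88 and matplotlib 3.10.9 were used.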

Additional observations from a re-analysis of the deposited data

How the results depend on the processing

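The 8 calls among the 157 members became 4 at an adjusted p under 0.01 and 16 under 0.1, where 9.02% of all genes were called. A minimum log2 fold change of 0.5 left 4, removal of the trend left 2, and 3 settings each left 0 of the 157. These were a t distribution with 6 degrees of freedom (21 members at an unadjusted p under 0.05, 0 calls over all genes), the null SD from the central statistics (9 and 5), and that SD together with the trend removed (9 and 44). With genes of a mean count of at least 100 there were 9, with Zfp770 added at an adjusted p of 0.0463. Centring, counting identical rows a single time and adding the 5 rows without a symbol left 8, the last pair chosen, like the trend with the SD, after seeing the data. The 2 calls of the machinery list became 1 at 0.01, 5 at 0.1, 3 at mean counts of at least 100, 1 with the trend removed, and 0 with the minimum fold, the t distribution, the estimated SD, and the SD with the trend removed (3 of 32 at an unadjusted p under 0.05 in the last).

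The median over the members ran from 0.08 with the trend removed to 0.15 at mean counts of at least 100. The median of members without a KRAB box was 0.02 at mean counts of at least 100, where it was -0.09 over all of them. Of the named genes, 4 changed the sign of their fold change, all uncalled and only with the trend removed: Zfp644 (-0.06, adjusted p = 0.765), Zfp655 (-0.06, 0.803), Zfp708 (-0.04, 0.954) and Zfp711 (-0.05, 0.900). With the estimated SD as well, these adjusted p-values were 0.995 for Zfp644 and 0.998 for the other genes. No paired analysis was possible because only values over all libraries were analysed here, and leaving out each replicate was not run for the same reason. Depth limits members with a mean count under 50 most, and their SEs reach 0.68. The cause of the changes between settings was not tested.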
